A study of Mus musculus with 8 samples.

Results

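The Iroquois homeobox genes Irx1, Irx2, Irx3, Irx4, Irx5 and Irx6 were followed in mouse embryonic stem (ES) cells before and after cardiac differentiation. They were found on the array by the gene name given to each probe, which took 7 probes for 6 genes out of 55583 probes and 34736 names with a value. The groups were R141C day 6, WT day 6, R141C day 0 and WT day 0, with 2 biological replicates each. R141C cells carried 1 normal copy and 1 R141C copy of Nkx2-5 (Nkx25 R141C in the labels), a homeobox factor of the early heart, and WT cells 2 normal copies. Every culture was of ES cells. Day 6 cultures had spent 2 days as embryoid bodies in hanging drops of 800 cells without LIF, the cytokine that keeps ES cells undifferentiated, then 3 days in suspension and 24 hours plated on gelatin from day 5. The labels name a single R141C genotype and no second clone, so a genotype and the line that carries it cannot be told apart. Each array came from 300 ng of RNA in 1 colour, and all lay on 1 slide with a row pair for each genotype and a column for each day, so slide position and group cannot be told apart either.

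Iroquois proteins are transcription factors of the TALE homeodomain class, named for a short loop inserted in the homeodomain, and share a conserved motif outside it, the Iro box. Their genes lie in a pair of clusters, Irx1, Irx2 and Irx4 on one chromosome and Irx3, Irx5 and Irx6 on another. In the mouse heart Irx4 marks the ventricles, Irx3 is needed for fast conduction through the ventricular conduction system, and Irx5 represses the potassium channel gene Kcnd2 across the ventricular wall. Several members also divide the early neural tube into domains, so their RNA is not particular to heart cells.

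On the mm9 coordinates of the files, the chromosome 13 cluster was read by the Irx1 probe at chr13:72095735-72095794, 2 Irx2 probes at chr13:72768784-72768843 and chr13:72771499-72771558, and the Irx4 probe at chr13:73406712-73406771. The chromosome 8 cluster was read by the Irx3 probe at chr8:94322476-94322535, the Irx5 probe at chr8:94884923-94884982 and the Irx6 probe at chr8:95203880-95203939. The probe at chr13:72768784-72768843 is shown because Irx2 alone had a second, dimmer measure. It matches the Irx2 transcript from base 821, and 33 of its 60 bases are G or C.
Irx2 dimmer probe: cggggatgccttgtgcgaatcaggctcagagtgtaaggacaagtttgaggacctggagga

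Promoter windows of 300 bases around a gene's start were available for 3 of the 6 members in the RefSeq table (GRCm38.p6). They are shown to set Irx2 and Irx3, whose signals rose in WT cells, beside Irx4, whose signal did not pass the test in any comparison. Capitals mark AAGTG, the core of the sequence that Nkx2-5 binds, searched on both strands, so that CACTT on the printed strand is the same word read from the other side. The core occurred once (1 match) in the Irx2 window at chr13:72628570-72628869 (plus strand), once in the Irx3 window at chr8:91801605-91801904 (minus strand) and not in the Irx4 window at chr13:73260247-73260546 (plus strand), against 46.4% of all 32851 promoters with at least 1 match.
Irx2: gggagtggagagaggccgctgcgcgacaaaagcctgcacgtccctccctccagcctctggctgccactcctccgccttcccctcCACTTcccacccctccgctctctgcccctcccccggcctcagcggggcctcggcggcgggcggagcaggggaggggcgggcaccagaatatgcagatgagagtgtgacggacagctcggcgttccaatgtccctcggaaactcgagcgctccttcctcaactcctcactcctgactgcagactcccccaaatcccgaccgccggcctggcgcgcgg
Irx3: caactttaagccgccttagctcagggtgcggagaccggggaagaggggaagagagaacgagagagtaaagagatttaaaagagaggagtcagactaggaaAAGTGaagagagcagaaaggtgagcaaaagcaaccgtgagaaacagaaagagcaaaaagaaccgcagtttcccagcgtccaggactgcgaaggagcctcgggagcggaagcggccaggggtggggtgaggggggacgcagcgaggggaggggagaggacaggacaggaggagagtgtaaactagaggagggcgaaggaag
Irx4: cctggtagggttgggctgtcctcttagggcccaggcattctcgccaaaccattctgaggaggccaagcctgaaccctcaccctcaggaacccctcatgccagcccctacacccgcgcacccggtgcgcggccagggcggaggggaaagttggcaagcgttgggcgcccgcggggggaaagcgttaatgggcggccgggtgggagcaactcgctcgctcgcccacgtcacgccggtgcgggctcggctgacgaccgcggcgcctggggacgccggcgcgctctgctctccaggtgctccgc

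The longer Nkx2-5 sequence TNAAGTG, which contains the core, had no match in these 3 windows and was found in 3790 of the 32851 promoters. The Iroquois palindrome ACANNTGT (7.38% of promoters), the T-box sequence AGGTGT (13.7%) and the GATA sequence AGATAA (11.2%) also had no match in the 3 windows on either strand. The windows held 25 CpG dinucleotides at Irx2, 14 at Irx3 and 31 at Irx4, against a median of 7 over all promoters, which placed them at percentiles 83.1, 65.4 and 90.5 of all promoters in that order. Their G and C content was 69%, 56% and 70.7% in the same order, against a median of 52.7%. A match or its absence in such a window describes the letters only.

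Signal is given below as log2 of the processed spot signal after each array's 75th percentile was set to 0, so values compare arrays for one probe and not one probe with another. A gene entered the limma test where the scanner's flag put its brightest probe well above background throughout 1 or more groups, as it did for 25892 of the 34736 names and for all 6 members. The array 75th percentile lay between 936 and 1848 signal units, 55.75% to 70.5% of probes were well above background, and no Irx spot was saturated or marked as an outlier. Markers of undifferentiated ES cells were brighter on every day 0 array. The mean log2 signal over 8 of them was 2.32 and 2.21 in R141C day 6, 2.16 and 1.92 in WT day 6, 5.03 and 4.59 in R141C day 0 and 5.04 and 5.68 in WT day 0.

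A pair of arrays stood apart in ways that touch the Irx values. R141C day 6 replicate 1 had a mean of -0.58 over 8 cardiomyocyte markers, with 7 of the 8 well above background, against 3.26 in its partner, 4.40 and 4.76 in WT day 6, -0.94 and -0.64 in R141C day 0 and -0.91 and -1.96 in WT day 0. WT day 0 replicate 2 had the highest ES cell marker mean and the lowest cardiomyocyte marker mean of the 8 arrays. Nkx2-5 itself had log2 signals of 1.53 and 1.58 in R141C day 6, 1.93 and 1.79 in WT day 6, 1.84 and -0.77 in R141C day 0 and -1.27 and -2.02 in WT day 0. Its probe reads the transcript and not the altered base, so it does not check the genotype labels. In RNA from whole cultures, fewer cells of a type and less RNA per cell cannot be told apart.

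The question of what happened to the family over 6 days of differentiation was asked first within each genotype. In R141C cells Irx3 rose and Irx6 fell, and the other 4 members did not pass the test. In WT cells Irx1, Irx2, Irx3 and Irx5 rose, Irx6 fell and Irx4 did not pass. With limma and Benjamini-Hochberg adjustment over the 25892 genes, 2 of 6 members passed an adjusted p of 0.05 in R141C cells, where 15.6% of all tested genes passed, and 5 of 6 in WT cells, where 24% passed. By direction, 1 member rose in R141C cells against 7.6% of all genes, and 1 fell against 8.04%. In WT cells 4 members rose against 11% of all genes, and 1 fell against 12.9%.

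Irx1, which in mouse is expressed in the ventricular septum as well as in the neural tube, gave log2 signals of -0.21 and 1.87 in R141C day 6 and -1.76 and -1.04 in R141C day 0. The days did not overlap, but the difference of 2.23 did not pass (limma adjusted p = 0.108, 95% interval 0.36 to 4.11). Without R141C day 6 replicate 1 it was 3.27 and passed (adjusted p = 0.0478). In WT cells Irx1 gave 3.99 and 3.77 at day 6 and -1.98 and -3.71 at day 0, a difference of 6.72 ± 0.79 (SE, n = 2 each, limma adjusted p = 0.00231), or 106-fold. That difference was 5.86 without WT day 0 replicate 2 (adjusted p = 0.0109) and 7.59 without replicate 1, so its size turned on the day 0 pair. The group means were 0.83 in R141C day 6, 3.88 in WT day 6, -1.40 in R141C day 0 and -2.85 in WT day 0. Downward from WT day 6, the order was thus R141C day 6, R141C day 0 and WT day 0, and no step between neighbours in it passed its test.

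Irx3, the conduction gene of the other cluster, passed in both genotypes. In R141C cells it gave 1.76 and 2.28 at day 6 and -1.27 and -1.49 at day 0, a difference of 3.40 ± 0.64 (SE, n = 2 each, limma adjusted p = 0.0174), or 10.54-fold. Without R141C day 6 replicate 1 it was 3.66 and did not pass (adjusted p = 0.0531). In WT cells it gave 4.26 and 3.99 at day 6 and -0.91 and -3.10 at day 0, a difference of 6.13 ± 0.64 (SE, n = 2 each, limma adjusted p = 0.00163), or 70.05-fold. The WT difference was 5.04 without WT day 0 replicate 2 (adjusted p = 0.00252) and 7.22 without replicate 1. Every day 6 array lay above every day 0 array. The group means were 2.02 in R141C day 6, 4.12 in WT day 6, -1.38 in R141C day 0 and -2.01 in WT day 0, the same order as for Irx1. Of the neighbours in it, R141C day 6 and R141C day 0 differed beyond the threshold.

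Irx5, the repressor of Kcnd2 in ventricular muscle, gave -4.07 and -2.74 in R141C day 6 and -4.39 and -4.81 in R141C day 0. The groups lay close together without overlap, and the difference of 1.20 did not pass (limma adjusted p = 0.432, 95% interval -1.03 to 3.43), nor did the 1.87 found without R141C day 6 replicate 1 (adjusted p = 0.358). In WT cells Irx5 gave 0.05 and -0.37 at day 6 and -3.91 and -6.93 at day 0. The second WT day 0 spot was not well above background, so 1 of the 2 WT day 0 arrays measured it. The WT difference was 5.26 ± 0.93 (SE, n = 2 each, limma adjusted p = 0.00973), or 38.3-fold, and without that array it was 3.75 (adjusted p = 0.0134). With means of -3.40 in R141C day 6, -0.16 in WT day 6, -4.60 in R141C day 0 and -5.42 in WT day 0, Irx5 had the order of Irx1 and Irx3. No step between neighbours passed.

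Irx2, the middle gene of the chromosome 13 cluster, gave -2.90 and -1.83 in R141C day 6 and -1.81 and -1.31 in R141C day 0 on its brighter probe, so both day 6 arrays lay just below both day 0 arrays. That difference of -0.81 did not pass (limma adjusted p = 0.541, 95% interval -2.72 to 1.11), and without R141C day 6 replicate 1 it was -0.27 (adjusted p = 0.888). In WT cells Irx2 gave 0.81 and 0.63 at day 6 and -1.23 and -3.84 at day 0, a difference of 3.26 ± 0.80 (SE, n = 2 each, limma adjusted p = 0.0291), or 9.56-fold. It was 1.95 without WT day 0 replicate 2 (adjusted p = 0.0492). The means were -2.36 in R141C day 6, 0.72 in WT day 6, -1.56 in R141C day 0 and -2.54 in WT day 0. Among Irx1, Irx2, Irx3 and Irx5, Irx2 was thus the one whose R141C mean was lower at day 6 than at day 0. Neighbours in the order of means that differ in both genotype and day were not tested.

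The dimmer Irx2 probe was likewise highest on the WT day 6 arrays. It gave -7.68 and -5.38 in R141C day 6, -3.31 and -3.56 in WT day 6, -5.11 and -4.88 in R141C day 0 and -4.94 and -7.20 in WT day 0. The first R141C day 6 spot and the second WT day 0 spot were not well above background. With each probe fitted as its own feature, its difference between the days was -1.53 in R141C (limma adjusted p = 0.304) and 2.64 in WT cells (adjusted p = 0.0778), so the WT rise of Irx2 passed on 1 of its 2 probes.

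Irx4, the ventricular member, had the narrowest range of signal among the 6 members. It gave -2.25 and -2.13 in R141C day 6, -2.24 and -2.22 in WT day 6, -2.57 and -2.80 in R141C day 0 and -2.20 and -2.76 in WT day 0. The spot was well above background on all 8 arrays, and the days overlapped in WT cells. Its differences between day 6 and day 0 were 0.49 in R141C (limma adjusted p = 0.220, 95% interval -0.08 to 1.07) and 0.25 in WT cells (adjusted p = 0.495, 95% interval -0.32 to 0.82). The means were -2.19 in R141C day 6, -2.23 in WT day 6, -2.68 in R141C day 0 and -2.48 in WT day 0, and no neighbours in their order differed beyond the threshold.

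Irx6, the last gene of the chromosome 8 cluster, fell in both genotypes. Its signals were -3.72 and -3.84 in R141C day 6 and -2.21 and -2.73 in R141C day 0, a difference of -1.31 ± 0.30 (SE, n = 2 each, limma adjusted p = 0.0329), or 2.47-fold lower. They were -3.64 and -3.75 in WT day 6 and -2.05 and -2.79 in WT day 0, a difference of -1.28 ± 0.30 (SE, n = 2 each, limma adjusted p = 0.0259), or 2.43-fold lower. All 4 day 6 arrays lay below all 4 day 0 arrays. Leaving out R141C day 6 replicate 1 gave a difference of -1.37 in R141C cells (adjusted p = 0.0902), and leaving out WT day 0 replicate 2 gave -1.65 in WT cells (adjusted p = 0.0210). Both calls were lost with normexp background correction, at -0.73 in R141C (adjusted p = 0.137) and -0.87 in WT (adjusted p = 0.0628). The means were -3.78 in R141C day 6, -3.70 in WT day 6, -2.47 in R141C day 0 and -2.42 in WT day 0, and the genotypes did not differ beyond the threshold at either day.

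**Figure D1:**
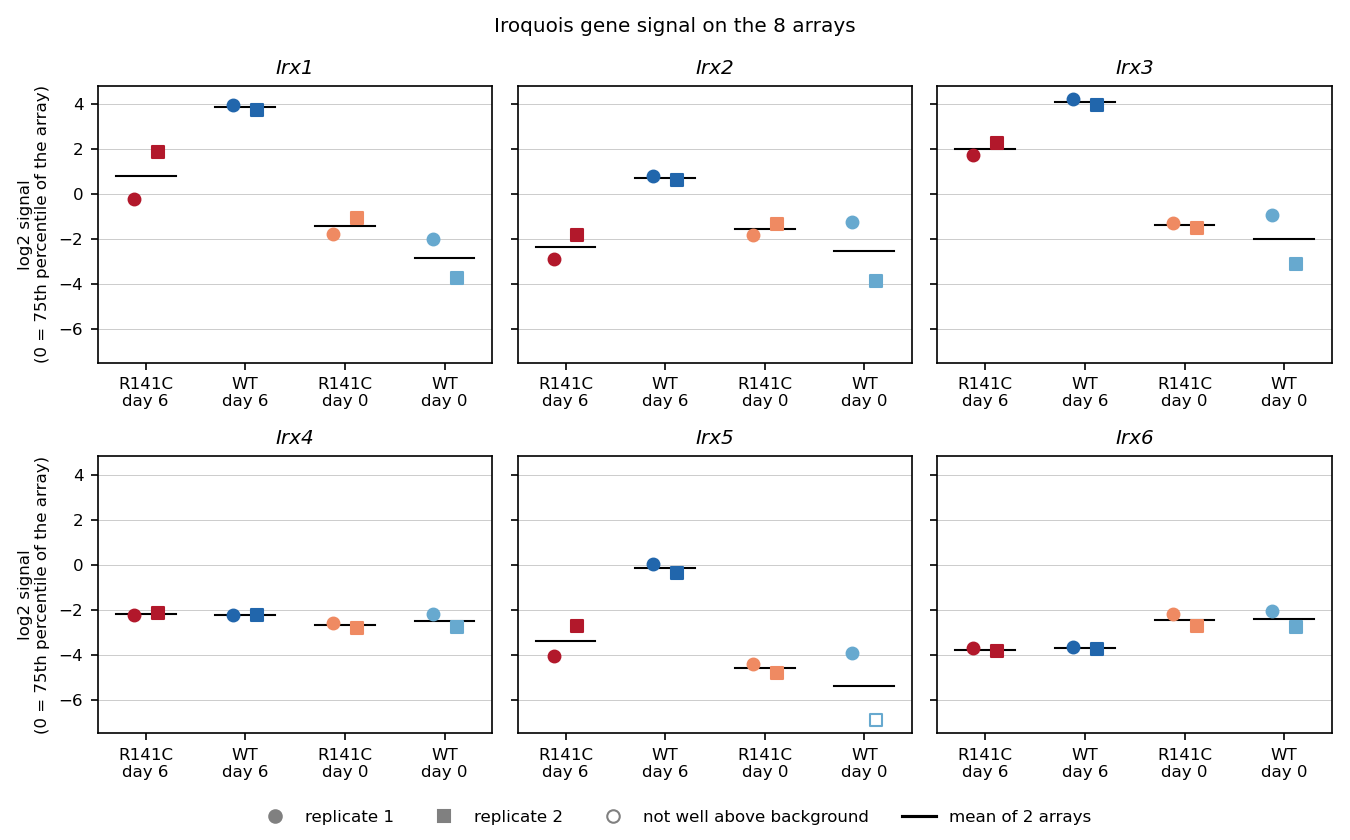
Log2 signal of each Irx gene (vertical axis, 0 is the 75th percentile of the array) in R141C day 6, WT day 6, R141C day 0 and WT day 0. Circles are replicate 1, squares replicate 2, open symbols spots not well above background and bars the mean of 2 arrays. Irx1, Irx3 and Irx5 show the same order of group means, Irx4 lies between -2.80 and -2.13 on every array, and Irx6 is lower on the day 6 arrays.

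The days did not overlap for 6 of 6 members in R141C cells, where 56% of all tested genes did not overlap, and for 5 of 6 in WT cells, where 71.3% did not. Leaving out 1 array at a time, between 0 and 2 members passed in R141C cells and between 2 and 5 in WT cells. In R141C cells Irx3 lost its call when any of the 4 R141C arrays was left out (limma adjusted p between 0.0531 and 0.0780, differences of 3.13 to 3.66). Irx6 lost its R141C call likewise, and also without either WT day 6 array (adjusted p between 0.0529 and 0.157, differences of -1.57 to -1.05). In WT cells Irx1 and Irx3 passed with any array left out. Irx2, Irx5 and Irx6 lost their WT calls when either WT day 6 array was left out, with differences of 3.17 and 3.35, 5.05 and 5.47, and -1.34 and -1.22, and Irx6 also without WT day 0 replicate 1 (-0.91, adjusted p = 0.0949). Wherever a member lost its call in this way, fewer of all tested genes passed as well. Whether such losses were particular to the family was not tested. A group left with 1 array was assumed to vary like the others.

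Whether the mutation went with a different Irx level was asked at day 6. Irx1, Irx2, Irx3 and Irx5 were each lower on both R141C day 6 arrays than on both WT day 6 arrays, by 2.10 to 3.24 on the log2 scale, while Irx4 and Irx6 overlapped. None of the 6 members passed the adjusted test, in a comparison where 0.0657% of all genes passed. The signed differences, R141C minus WT, were -3.05 for Irx1 (limma adjusted p = 0.383, 95% interval -4.92 to -1.17), -3.09 for Irx2 (adjusted p = 0.387, -4.999 to -1.17), -2.10 for Irx3 (adjusted p = 0.449, -3.64 to -0.57) and -3.24 for Irx5 (adjusted p = 0.418, -5.47 to -1.02). In folds these are 8.27, 8.49, 4.30 and 9.48, in that order of genes. At an unadjusted limma p of 0.05, Irx1, Irx2, Irx3 and Irx5 passed, against 8.54% of all tested genes. Groups that did not overlap, with R141C lower, were found for 4 of 6 members and for 16.5% of all genes.

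For Irx4 and Irx6 the day 6 genotype differences were 0.04 (limma adjusted p = 0.970, 95% interval -0.53 to 0.61) and -0.08 (adjusted p = 0.951, -0.81 to 0.65). These intervals bound the size of a difference and do not show that the genotypes were alike. The dimmer Irx2 probe gave -3.09 (adjusted p = 0.415), close to the brighter one. The WT day 6 arrays that enter these values also enter the WT differences between days, so the 2 sets of values are not independent.

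Without R141C day 6 replicate 1, the array low in cardiomyocyte markers, the day 6 genotype differences were -2.005 for Irx1, -2.55 for Irx2, -1.84 for Irx3 and -2.58 for Irx5. Without R141C day 6 replicate 2 they were -4.09, -3.62, -2.37 and -3.91, in the same order of genes. No member passed either way. Over marker lists, the range of the mean in R141C day 6 against WT day 6 was -0.58 to 3.26 against 4.40 to 4.76 for cardiomyocyte, -0.55 to 0.46 against 1.29 to 1.34 for 6 cardiac progenitor markers, and -2.83 to -2.16 against -1.27 to -1.07 for 8 neural markers. The means of paraxial mesoderm (4 markers, -1.62 to -0.63 against -0.59 to -0.15) and epithelium (4 markers, 4.68 to 5.10 against 5.11 to 5.17) were also lower in R141C day 6 without overlap. Taken singly, Meox1 was the only paraxial mesoderm marker lower without overlap, and Cdh1 the only epithelium marker. Of the neural markers, Map2 and Dcx overlapped and the others were lower in R141C day 6. There, 6 and 7 of the 8 neural markers were well above background. The neural mean was higher on every day 0 array, at -0.24 and -0.36 in R141C and 0.01 and -0.59 in WT. That list thus did not single out neural cells in these cultures. The means of endothelial (4 markers, 0.07 to 0.51 against 0.07 to 0.22), blood (4 markers, 1.67 to 2.88 against 2.001 to 3.24) and endoderm (5 markers, 0.88 to 2.90 against 2.29 to 2.33) overlapped. All 6 progenitor markers were well above background on each day 6 array. The part of these cell types in the Irx values was not tested. Within the R141C day 6 pair, Irx1 was lower in replicate 1 by 2.08, which is wider than the gap of 98.3% of tested genes. Irx5 was lower there by 1.34 (percentile 93.7 of gaps) and Irx2 by 1.06 (percentile 89.4). The cardiomyocyte, cardiac progenitor, neural, endoderm and epithelium means were lower in replicate 1 too. The endothelial, blood and paraxial mesoderm means were higher in it. Irx3 differed by 0.53 in that pair, at the 65.2 percentile of gaps.

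**Figure D2:**
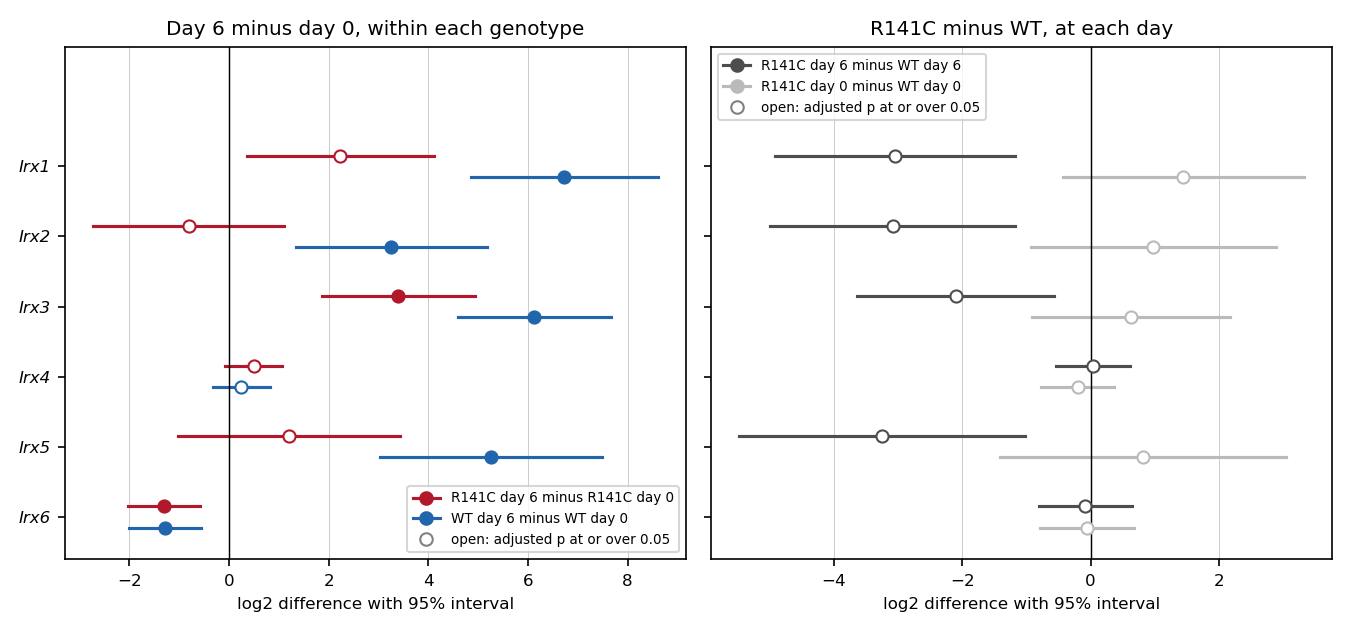
Log2 differences of the 6 Irx genes with 95% intervals, day 6 minus day 0 in R141C (red) and WT (blue) on the left, and R141C minus WT at day 6 (dark grey) and day 0 (light grey) on the right. Filled points passed an adjusted p of 0.05; on the right every point is open, and the day 6 intervals of Irx1, Irx2, Irx3 and Irx5 lie below 0.

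At day 0, before differentiation, no member passed and no gene did (0% of all tested genes), and each member had a limma adjusted p of 0.9995. No member had an unadjusted p under 0.05 either, against 4.5% of all genes. The R141C minus WT differences were 1.45 for Irx1 (95% interval -0.43 to 3.32), 0.98 for Irx2 (-0.93 to 2.89), 0.63 for Irx3 (-0.91 to 2.17), -0.20 for Irx4 (-0.78 to 0.37), 0.81 for Irx5 (-1.41 to 3.04) and -0.06 for Irx6 (-0.78 to 0.67). Irx1 was the 1 member whose groups did not overlap, against 28.8% of all genes.

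The day 0 genotype differences of Irx1, Irx2, Irx3 and Irx5 depended on which WT day 0 array was used. The 2 WT day 0 arrays differed by 1.73 for Irx1, 2.61 for Irx2, 2.19 for Irx3 and 3.02 for Irx5, with replicate 2 lower each time. These gaps were wider than those of 96.8%, 99%, 98.3% and 99.4% of tested genes, and the median gap was 0.30. The Irx5 spot in replicate 2 was not well above background. The Irx5 gap, and its difference without replicate 1, thus rest on a signal near the floor. Without replicate 2 the R141C minus WT differences of Irx2, Irx3 and Irx5 changed sign, to -0.33, -0.47 and -0.70, and that of Irx1 was 0.58. Without replicate 1 they were 2.28, 1.72 and 2.32, and that of Irx1 was 2.31.

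Whether the genotype effect differed between the days was tested as an interaction over all 8 arrays. No member and no gene passed (0%), although 4 of 6 members had an unadjusted limma p under 0.05, against 5.64% of all genes. The differences, day 6 effect minus day 0 effect, were -4.49 ± 1.11 for Irx1 (SE, limma adjusted p = 0.698), -4.06 ± 1.13 for Irx2 (adjusted p = 0.7503), -2.73 ± 0.91 for Irx3 (adjusted p = 0.826) and -4.06 ± 1.32 for Irx5 (adjusted p = 0.810). Irx4 and Irx6 had 0.24 (adjusted p = 0.941) and -0.03 (adjusted p = 0.995). Without both WT day 0 replicate 2 and R141C day 6 replicate 1 the first 4 values were -2.58, -2.23, -1.38 and -1.88, with adjusted p between 0.640 and 0.766. For Irx1, Irx2, Irx3 and Irx5 the day effects were larger in WT than in R141C cells. Adjusted over all tested genes, that difference between the genotypes did not pass for any of them.

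**Figure D3:**
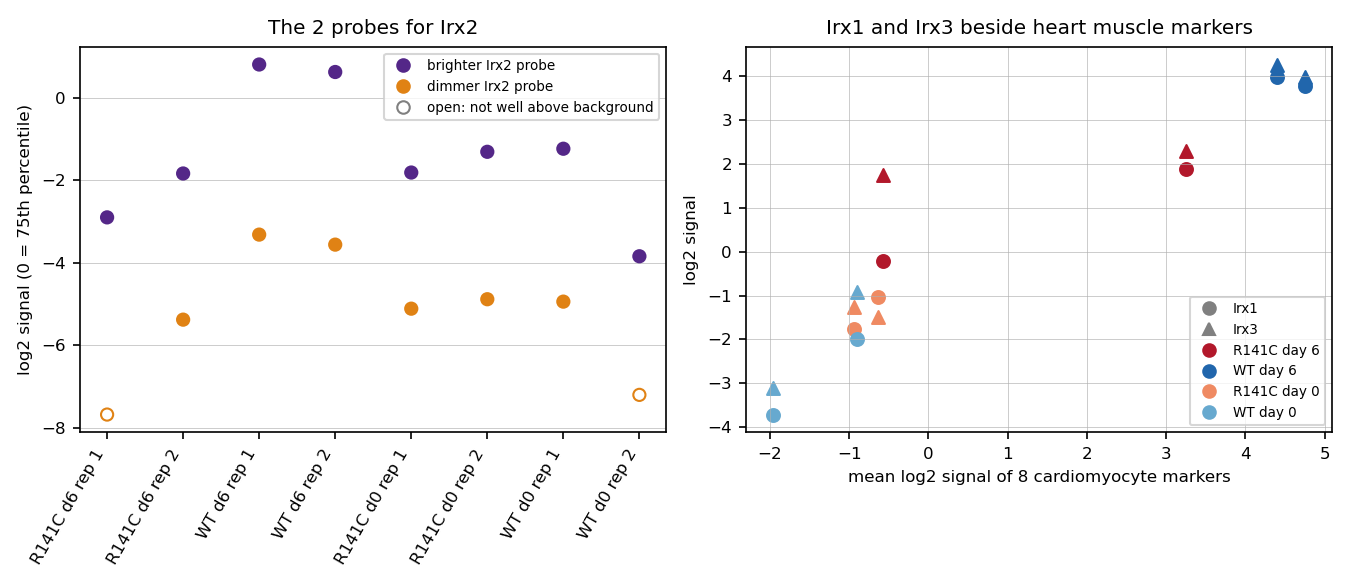
Left, log2 signal of the brighter (purple) and dimmer (orange) Irx2 probe on each array, open where the spot was not well above background; both are highest in WT day 6. Right, log2 signal of Irx1 (circles) and Irx3 (triangles) against the mean log2 signal of 8 cardiomyocyte markers on the same array, coloured by group; R141C day 6 replicate 1 sits at -0.58 on the horizontal axis with Irx3 at 1.76 and Irx1 at -0.21.

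Over the 8 arrays, Irx1, Irx3 and Irx5 ran together across the 2 clusters, with Pearson r of 0.968 for Irx1 and Irx3, 0.960 for Irx1 and Irx5 and 0.939 for Irx3 and Irx5. Irx2 followed Irx5 at 0.905, Irx1 at 0.812 and Irx3 at 0.718. Irx6 was negative against every other member, from -0.802 with Irx3 to -0.269 with Irx2. These 8 points hold 4 groups and share the step between the days, so the values describe the arrays only.

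The genes outside the family with the most similar profile, by Pearson r over the 8 arrays among 17686 tested genes with a current symbol, were Tox3, B130024G19Rik and Heyl for Irx1 (r = 0.996, 0.995 and 0.994). For Irx3 they were Meis1, Dusp26 and Dll4 (0.996, 0.996 and 0.992), and for Irx6 Metap1, Coil and Palm3 (0.998, 0.997 and 0.995). Irx5 was nearest to Map1lc3b, Lclat1 and Celf3 (0.983, 0.982 and 0.979), Irx2 to LTO1, Tm4sf1 and Ptges3l (0.973, 0.971 and 0.967) and Irx4 to Cidec, Tdrkh and Rhox4g (0.974, 0.938 and 0.929). B130024G19Rik, Heyl and Dll4 were not well above background on any day 0 array. In R141C day 6 replicate 1 B130024G19Rik and Heyl were not either. The r values of these genes thus rest partly on spots near background. Tox3, an HMG-box factor, gave -0.08 and 0.64 in R141C day 6, 1.71 and 1.55 in WT day 6, -1.10 and -0.55 in R141C day 0 and -0.91 and -1.94 in WT day 0. It had the same order of groups as Irx1, over a smaller range.

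Meis1, the nearest gene to Irx3, belongs to the same TALE class and encodes a cofactor of Hox and Pbx proteins. It gave 1.90 and 2.40 in R141C day 6, 4.15 and 4.13 in WT day 6, -0.06 and -0.45 in R141C day 0 and 0.10 and -2.10 in WT day 0. As with Irx3, both R141C day 6 arrays lay between the WT day 6 arrays and every day 0 array. The Meis1 difference between the days was 2.40 in R141C cells, which did not pass (limma adjusted p = 0.0515), and 5.14 in WT cells, which did (adjusted p = 0.00302).

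Of the 12 other TALE homeobox genes, all tested, 2 rose and none fell in R141C cells, where 7.6% and 8.04% of all tested genes did. In WT cells 6 rose and 1 fell, where 11% and 12.9% did. The rises in R141C cells were those of Pbx2 (1.35, limma adjusted p = 0.0240) and Pbx3 (1.20, adjusted p = 0.0120). Beside Meis1, the rises in WT cells were led by Meis2 (5.40, adjusted p = 0.00488), Pknox2 (2.51, adjusted p = 0.00928) and Pbx3 (2.05, adjusted p = 0.00135), and Mkx fell by 1.33 (adjusted p = 0.0383). Pbx proteins are DNA-binding partners of Meis and Hox factors. The median difference over the 12 was 0.69 in R141C and 0.62 in WT cells, beside -0.0284 and -0.118 over all tested genes. Between genotypes none of the 12 passed at either day, and the day 6 median was -0.05, beside 0.0708 over all genes. Tgif1, a repressor among the brightest of them, differed at day 6 by -0.01 (adjusted p = 0.992).

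Of 23 heart genes reported downstream of Irx factors or expressed with them, 22 were tested, and Kcnd2, the Irx5 target, did not reach the filter in any group. In R141C cells 9 rose and none fell, where 7.6% and 8.04% of all tested genes did, and in WT cells 13 rose and 1 fell, where 11% and 12.9% did. Among those measured on both days, the largest rises in R141C cells were those of Hand2 (7.49, limma adjusted p = 0.000455) and Gata4 (4.94, adjusted p = 0.000916), early heart transcription factors, and of Hey2 (4.48, adjusted p = 0.00516), a transcriptional repressor expressed in the ventricular compact wall. In WT cells they were those of Hand2 (9.15, adjusted p = 0.000248), Myl7 (6.87, adjusted p = 0.0108), an atrial myosin light chain, and Gata4 (5.47, adjusted p = 0.000425). In R141C day 0, Hand2 and Hey2 were each well above background on 1 of the 2 arrays. Tbx5, another early heart factor, was not well above background on any day 0 array. Its day 6 signal was at least 12.33-fold higher in R141C (adjusted p = 0.0106) and at least 143.3-fold higher in WT cells (adjusted p = 0.000993), where such a bound sets the bright group's mean against, on each array of the dim group, the probe's own signal or the lowest signal well above background, whichever was higher. Rxra, a nuclear receptor, fell by 1.504 in WT cells (adjusted p = 0.0233). List medians of the fitted differences were 2.41 in R141C and 3.61 in WT cells, beside -0.0284 and -0.118 over all tested genes. None passed between genotypes at day 6, where the median was -0.70 and the brightest members, Tbx3 and Myh6, differed by 1.36 (adjusted p = 0.652) and -3.89 (adjusted p = 0.413).

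Of 22 factors that pattern the neural tube next to Irx domains, 17 were tested. In R141C cells 4 rose and 3 fell, where 7.6% and 8.04% of all tested genes did, and in WT cells 6 rose and 3 fell, where 11% and 12.9% did. Hoxb1 rose by 2.74 in R141C (limma adjusted p = 0.0151) and 6.46 in WT cells (adjusted p = 0.000619). It is a hindbrain segment gene that other embryonic tissues also use, and in WT day 0 it was well above background on 1 of the 2 arrays. Fgf8, a signal of the midbrain border and of gastrulation, rose by 2.63 in R141C (adjusted p = 0.0157) and 3.83 in WT cells (adjusted p = 0.00299). Dbx1 was not well above background on any day 0 array and was at least 3.206-fold higher at day 6 in R141C (adjusted p = 0.0317) and at least 5.169-fold higher in WT cells (adjusted p = 0.0157). The genes that fell were Nkx6-2, Gbx2 and En2 in both genotypes. Nkx6-2 fell by 4.26 in R141C (adjusted p = 0.0245) and 4.81 in WT cells (adjusted p = 0.0114), Gbx2 by 3.50 (adjusted p = 0.0147) and 3.25 (adjusted p = 0.0130), and En2 by 2.72 (adjusted p = 0.00305) and 3.02 (adjusted p = 0.00141). At day 6 Nkx6-2 was well above background on 1 of the 2 arrays in each genotype. The medians were 0.05 in R141C and 0.69 in WT cells, beside the same -0.0284 and -0.118 over all genes, and no member passed between genotypes.

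Around the 2 clusters, 42 other genes had their representing probe within 1 Mb of an Irx probe, and 26 were tested. In R141C cells 1 rose (Mmp2) and 5 fell (Eprn, Slc6a2, Slc6a3, Chd9 and Clptm1l), and in WT cells 3 rose (Crnde, Mmp2 and Exoc3) and 6 fell. Of all tested genes 7.6% rose and 8.04% fell in R141C cells, and 11% rose and 12.9% fell in WT cells. The neighbours' medians were -0.06 in R141C and -0.15 in WT cells, near the -0.0284 and -0.118 of all genes. On the chromosome 8 side Crnde, a long noncoding RNA gene next to Irx5 in the RefSeq annotation, gave -2.83 and -2.42 in R141C day 6, -0.51 and -0.97 in WT day 6, -3.07 and -4.49 in R141C day 0 and -3.31 and -3.96 in WT day 0. Its probe spans chr8:94850318-94868767 and starts 34.6 kb before the start of the Irx5 probe. The Crnde difference between the days was 1.16 in R141C cells, which did not pass (limma adjusted p = 0.167), and 2.89 in WT cells, which did (adjusted p = 0.00842). Both R141C day 6 arrays were below both WT day 6 arrays for Crnde, as for Irx5, and the genotype difference of -1.88 did not pass (adjusted p = 0.390).

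Mmp2, a gelatinase gene 173 kb from the Irx6 probe, rose by 1.62 in R141C (limma adjusted p = 0.0358) and 2.25 in WT cells (adjusted p = 0.00898). Slc6a2, a noradrenaline transporter gene 321 kb from it, had no day 6 array well above background. Its day 6 signal was lower by at least 1.56-fold in R141C cells (adjusted p = 0.0149) and at least 1.377-fold in WT cells (adjusted p = 0.0187). On chromosome 13, Eprn, a long noncoding RNA gene of early embryonic cells with its probe 75.6 kb from that of Irx4, fell by 5.45 in R141C (adjusted p = 0.00206) and 5.90 in WT cells (adjusted p = 0.00106). Irx4, which lies between Irx2 and Eprn, passed in neither genotype. Slc6a3, a dopamine transporter gene, was likewise not well above background at day 6, and its signal there was lower by at least 2.824-fold in R141C cells (adjusted p = 0.0221) and at least 2.006-fold in WT cells (adjusted p = 0.0256). Ndufs6 and Mrpl36, mitochondrial genes next to Irx4 and the brightest of the neighbours, differed between genotypes at day 6 by 0.09 and 0.06.

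**Figure D4:**
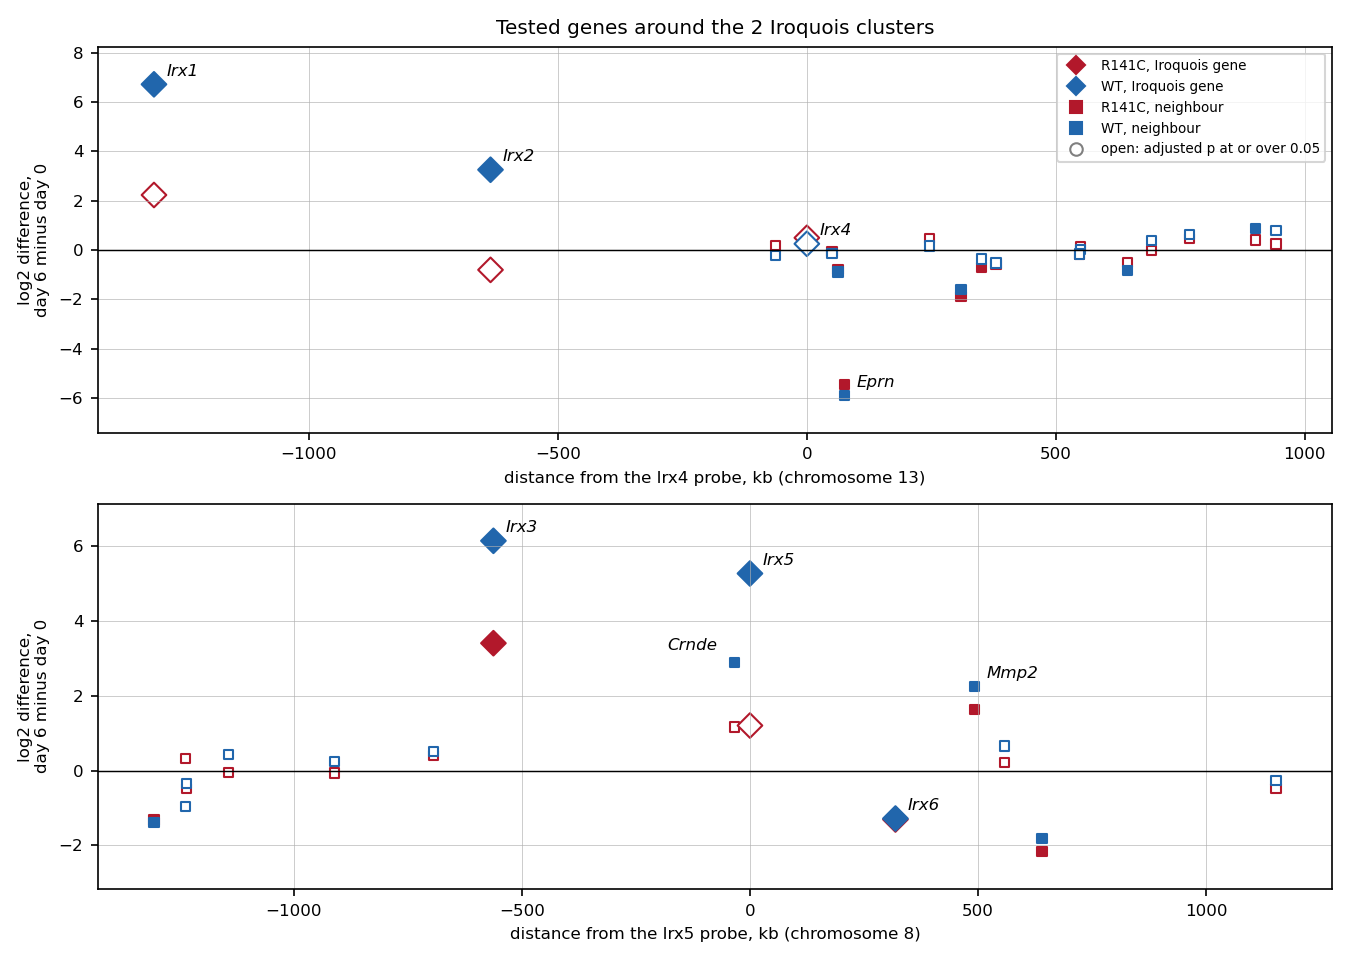
Log2 difference, day 6 minus day 0, of the Irx genes (diamonds) and tested neighbours (squares) by distance of the probe in kb from the Irx4 probe (top) and the Irx5 probe (bottom), in R141C (red) and WT cells (blue). Filled symbols passed an adjusted p of 0.05. Irx1, Irx2, Irx3 and Irx5 stand above their neighbours in WT cells, Crnde and Mmp2 are the neighbours past 2 upward, and the Irx6 symbols of -1.31 and -1.28 cover each other. Slc6a2 and Slc6a3, not well above background at day 6, are drawn at their fitted values.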

How the data were processed

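Per the file headers, the deposited scanner files came from Agilent Feature Extraction 11.5.1.1, while the submitters' processing notes name 10.5.1.1. The processed signal is deposited as an intensity with background subtracted and no normalization between arrays. The deposited mean signal and median background are uncorrected intensities, and the deposited spot flags (other) are 0 or 1. The series matrix holds the authors' log2 values for 36388 probes; they tracked log2 processed signal of the same array (r = 0.9995 or more), with column medians of 8.99 to 9.04, and their filter is not given in the sources used here.

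Outlier spots were left out, spots of 1 probe averaged, and log2 processed signal shifted by the array's 75th percentile. A gene was its probe with the highest mean signal. limma 3.58.1 (R 4.3.3) fitted 4 group means to 8 arrays (4 residual and 2.70 prior degrees of freedom), two-sided, with Benjamini-Hochberg adjustment over 25892 genes, and an adjusted p under 0.05 counted as passing. The limma fit was tested on simulated gene values, and the steps before it were not. Replicates are biological replicates per the series text; their number limits the precision. The members, gene lists and comparisons were chosen with earlier results of these data known. All members and their probes are named, as are the 3 genes most correlated with each and, per list and comparison, the 4 largest changes among passing genes (fewer where fewer passed) or the 2 brightest where none did. Some list genes under this rule are not reported here. Mkx, Rxra, Dbx1, En2, Exoc3, Chd9 and Clptm1l were named after their values were seen. Alternatives were other scalings, normexp, the deposited log2 values, other filters, eBayes settings, the arrays compared alone, probe means, a replicate block and leaving out arrays. Replicate differences correlated between groups at -0.14 to 0.34, so equal numbers were not taken as pairs. Figures used Python 3.11.15 and matplotlib 3.10.9.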

Additional observations from a re-analysis of the deposited data

How the results depend on the processing

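With 2 arrays a group the number of arrays limits every value. Counts of passing members between genotypes (day 6, day 0 and the interaction) were 0 under every alternative run. In R141C cells the count of 2 became 1 with normexp, with no filter and with only the arrays compared (Irx3 each time), and 0 to 2 with 1 array left out. In WT cells the count of 5 became 3 with only the arrays compared (Irx1, Irx3 and Irx5) and 2 to 5 with 1 array left out. The calls lost with 1 array left out come from fewer samples. Normexp ended the WT call of Irx6 as well (adjusted p = 0.0628), and the other probe that of Irx2 (adjusted p = 0.0778). A median shift moved the median of all genes in WT cells to 0.00436, against -0.118, and no Irx call changed with it. Signs turned for values near 0: the day 6 genotype difference of Irx4 was -0.0460 with a median shift, that of Irx6 was 0.11 with normexp, and the Irx6 interaction was 0.15 with normexp; the cause was not tested. Chosen after seeing the data, leaving out WT day 0 replicate 2 and R141C day 6 replicate 1 together gave 3 members in R141C (Irx1, Irx3 and Irx5) and 5 in WT cells, an Irx4 WT difference of -0.0293, day 0 genotype differences of -0.33, -0.47 and -0.70 for Irx2, Irx3 and Irx5, and an Irx6 interaction of 0.28. With 1 array left out the ranges that crossed 0 were -0.0293 to 0.53 (Irx4, WT days), -0.0204 to 0.10 (Irx4, genotype at day 6), -0.33 to 2.28 (Irx2), -0.47 to 1.72 (Irx3), -0.48 to 0.0774 (Irx4), -0.70 to 2.32 (Irx5) and -0.43 to 0.32 (Irx6) for genotype at day 0, and -0.0365 to 0.52 (Irx4) and -0.40 to 0.35 (Irx6) for the interaction. The replicate block gave 2 members in R141C and 5 in WT cells and 0 in the other comparisons, and changed no call. With the R141C day 0 numbers crossed in the block, 0 members passed at day 0.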
